A study of Mus musculus with 4 samples.

Results

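Wide RNA polymerase II (Pol II) peaks at which no FoxP3 was called were examined in mouse CD4+ conventional T cells. The members were chosen by 3 measured properties of the deposited peak lists. A Pol II peak had to be over 800 bp from start to end, it had to share no base with a peak of either anti-FLAG (FoxP3) list, and it could not lie in a dense cluster. A dense cluster was 4 or more Pol II peaks joined across edge-to-edge gaps of 12500 bp or less. Of the 17632 Pol II peaks, 3781 were over 800 bp, or 21.4%. A peak of neither FoxP3 list touched 2220 of these, and 215 of the 2220 lay in dense clusters, which left 2005 members, or 11.4% of the Pol II list. Over the whole Pol II list, 69.5% of peaks overlapped no FoxP3 peak, and outside dense clusters the share was 68.6%. Width, Pol II score, FoxP3 overlap and clustering either chose these peaks or come from the same precipitations, so all values below are descriptions and none carries a test.

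The study mapped FoxP3 by chromatin immunoprecipitation with sequencing (ChIP-seq) in primary CD4+ T cells of C57BL/6 mice aged 6 to 8 weeks, taken from lymph nodes and activated with beads against CD3 and CD28 in the presence of interleukin 2. There were 4 groups of 1 library each: anti-FLAG (clone M2) from cells given FLAG-FoxP3 + GATA1, anti-FLAG from cells given FLAG-FoxP3 by itself, anti-Pol II (N20), and whole cell extract with no factor and no antibody. The Pol II library is titled and tagged as carrying FLAG-FoxP3 and GATA1, whereas its short description names activated CD4 cells and Pol II alone, so the labels do not settle which factors its cells held. The labels speak of both transfection and transduction, and the vector, its promoter and the number of pooled animals are not stated there. Markers of T cells or other cell types were not checked, because genes could not be placed on the lists without an annotation of their build.

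Pol II transcribes protein-coding genes and many noncoding RNAs. It gathers at start sites, where it often pauses before moving on, and it spreads more thinly through the bodies and past the ends of active genes, so a stretch of enriched signal can be narrow or broad. The N20 antibody was raised against the amino terminus of the largest Pol II subunit and is used to detect the polymerase whether it is paused or elongating. FoxP3 is the forkhead transcription factor that marks regulatory T cells, and is little expressed in conventional T cells. GATA1 is a zinc-finger factor of the red cell and megakaryocyte lineages.

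The 2005 wide peaks without FoxP3 were mostly only a little over the minimum width, and a few were very broad. Their median width was 937 bp (order-statistic 95% interval 926 to 947), with quartiles of 857 and 1098 bp and a maximum of 6457 bp. Of the members, 806 (40.2%) were 801 to 900 bp wide, 456 were 901 to 1000 bp and 443 were 1001 to 1200 bp. A further 232 reached 1201 to 1500 bp and 52 reached 1501 to 2000 bp, and 16 (0.798%) were broader than 2000 bp. Together they covered 2.04 Mb, which was 16.6% of all bases in Pol II peaks. Intervals here count peaks as if independent and do not cover variation between cultures or the depth of the libraries, which is unknown.

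The width minimum fell in a dense part of the distribution. There were 10 members of 801 bp, and 4 peaks of 800 bp met every other condition. Just inside, the 3 with the highest scores were 22305631 to 22306431 of chromosome 6 with a score of 259.8, 65620497 to 65621297 of chromosome 11 with 209.8, and 156022021 to 156022821 of chromosome 2 with 200.8. Just outside, at 800 bp, were 65739042 to 65739841 of chromosome 7 with 243.5, 8740482 to 8741281 of chromosome 3 with 194.7 and 119164848 to 119165647 of chromosome 4 with 181.8. The 186 members of 801 to 820 bp had a median score of 149.9, and the 190 otherwise eligible peaks of 781 to 800 bp had a median of 142.6. Peaks on both sides of the minimum thus ran into each other in score as in width.

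The deposited score of a peak is a measure of enrichment over the whole cell extract. In the usual layout of the peak caller MACS it is the negative log10 p-value of a peak multiplied by 10, and it grows with read depth, so it was compared within the Pol II list only. Members had a median score of 197.8 (193.1 to 201.8), with quartiles of 153.5 and 260.7. The other unclustered peaks over 800 bp, those that did overlap FoxP3 (1425 peaks), had a median of 253.2 (244.5 to 262.3). The difference, members minus peaks with FoxP3, was -55.49 (-65.4 to -45.58). Its interval combines those of both medians as the root of their summed squares, placed evenly around the difference. The 9125 shorter unclustered peaks without FoxP3 had a median of 100 (99.08 to 100.7), and the 3663 shorter ones with FoxP3 had 134.9 (132.8 to 137.4). Members therefore stood above both shorter classes and below the wide peaks with FoxP3 in median score. Their median width was also slightly smaller than the 967 bp (956 to 978) of the wide peaks with FoxP3.

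Wider members tended to score higher. From 801 to 900 bp the median score was 159.9 (156.2 to 163.9), from 1001 to 1200 bp it was 247 (238.9 to 253.5), and from 1501 to 2000 bp it was 404.4 (361.4 to 428.3). Across the 2005 members Spearman's rho of width and score was 0.613, against 0.519 across the 1425 wide peaks with FoxP3, 0.227 across the 9125 shorter peaks without FoxP3 and 0.0245 across the 3663 shorter peaks with FoxP3. The 16 members over 2000 bp had a median of 640.2, but with a wide interval (177.3 to 888.5) and a lowest score of 50.29. The rule cuts the classes at 800 bp, so they span different ranges of width and their values of rho are not directly comparable. These peaks share 1 library, 1 control and 1 peak caller.

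**Figure D1:**
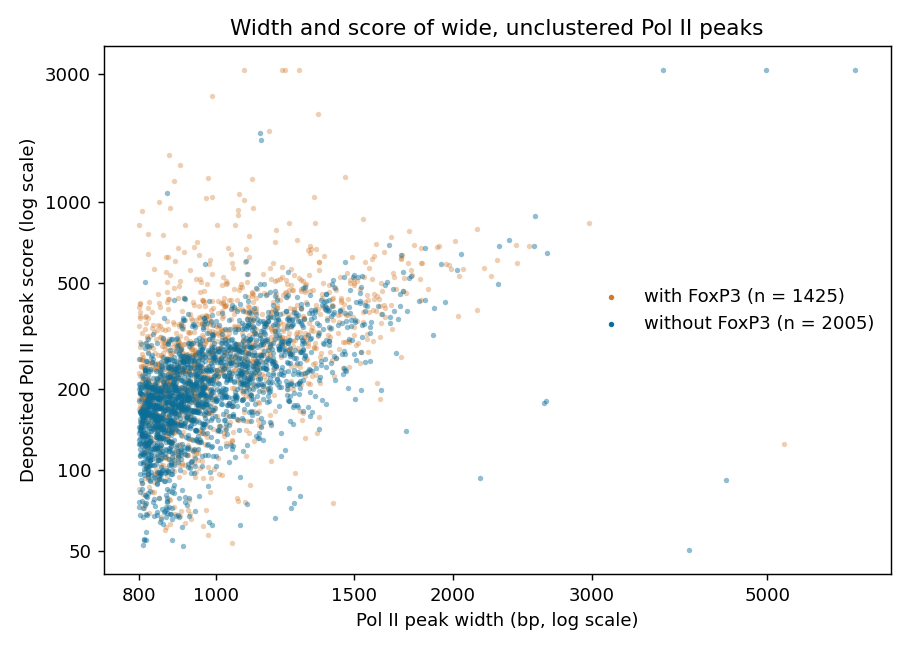
Width (bp) against deposited Pol II score, both on log axes, for the 2005 wide unclustered Pol II peaks without FoxP3 (blue) and the 1425 with FoxP3 (orange), 1 point per peak. Score rises with width in both, and a few blue points lie apart at over 2000 bp with scores either of 3100 or under 200.

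Among unclustered Pol II peaks of over 800 bp, 58.5% (Wilson 95% interval 56.8 to 60.1) overlapped no FoxP3 peak, which is below the 68.6% of all unclustered Pol II peaks. Of the 1425 that did overlap FoxP3, 739 overlapped peaks of both FoxP3 lists, 398 only a peak from cells with GATA1 and 288 only a peak from cells without it. The share without FoxP3 was 78.3% (77.3 to 79.3) at 501 to 600 bp and 63.8% (61.6 to 65.9) at 701 to 800 bp. Past the minimum it was 63.7% (61.0 to 66.3) at 801 to 900 bp and 56.9% (53.5 to 60.3) at 901 to 1000 bp, and it was 41.9% (33.6 to 50.7) at 1501 to 2000 bp. The 30 unclustered peaks over 2000 bp gave 53.3%, with an interval of 36.1 to 69.8 that spans the other wide classes. No step was seen at 800 bp. The narrowest peaks broke the order, since only 42% (39.4 to 44.6) of those of 500 bp or less lacked FoxP3.

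Set side by side at the same Pol II score, wide peaks did not always lack FoxP3 less often than shorter ones. At scores of 75 to 100, 66.4% (57.4 to 74.3) of wide peaks and 83.1% (81.9 to 84.3) of shorter peaks had no FoxP3. At 100 to 150 the shares were close, at 69.5% (65.2 to 73.4) and 73.5% (72.2 to 74.7). The order then turned: at 150 to 200 it was 70.2% (66.9 to 73.2) of wide peaks against 50.6% (48.1 to 53.1) of shorter ones. At 200 to 300 the shares were 59.1% (56.2 to 61.9) and 24.8% (21.7 to 28.3), and at 300 to 500 they were 42.4% (38.7 to 46.3) and 7.35% (4.51 to 11.8). At 500 and above, 33 of 173 wide peaks lacked FoxP3, or 19.1% (13.9 to 25.6), and 3 of 52 shorter ones did, or 5.77% (1.98 to 15.6). At each step from 150 to 500, the share without FoxP3 was higher in the wide class than in the shorter one, and the intervals did not meet. By number, shorter peaks without FoxP3 were still the more common at 150 to 200, at 767 against 562. Width and FoxP3 overlap are both in the rule, and the range was read off where the order turned, so this is a description.

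**Figure D2:**
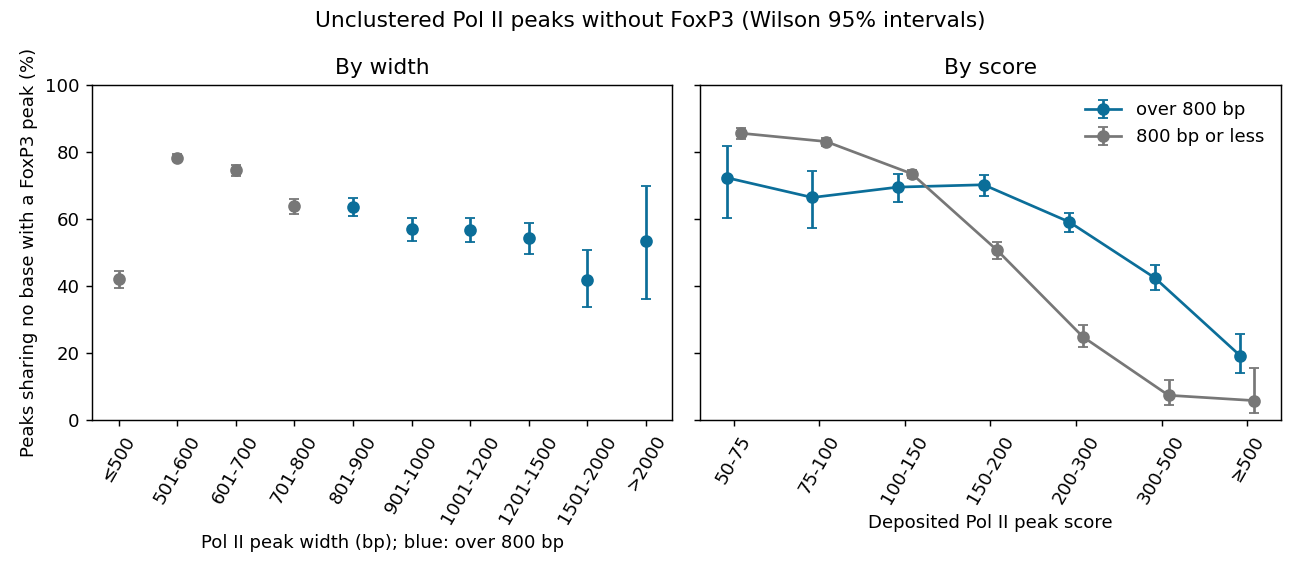
Share (%) of unclustered Pol II peaks that share no base with a FoxP3 peak, by width class (left, blue over 800 bp) and by deposited Pol II score (right, blue over 800 bp, grey 800 bp or less), with Wilson 95% intervals. The 2 curves on the right cross between scores of 100 and 200, and at 300 to 500 they stand at 42.4% and 7.35%.

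Members were not confined to weak Pol II peaks. Of the 1000 highest-scoring Pol II peaks, 245 were members and 445 were wide peaks with FoxP3. A further 194 were shorter peaks with FoxP3 and 15 were shorter peaks without it, and the rest lay in dense clusters. Of the 100 highest-scoring, 8 were members, 40 were wide with FoxP3, 19 were shorter with FoxP3, 2 were shorter without it and 31 lay in dense clusters. Members were 11.4% of the Pol II list, so their part was above this among the top 1000 and below it among the top 100. They were 58.5% of the unclustered wide peaks, yet wide peaks with FoxP3 outnumbered them in both of these score ranges. Of the 100 widest peaks of the whole list, 39 were members and 43 were wide peaks with FoxP3, while 18 lay in dense clusters. Width is in the rule, so the shorter classes could not enter this count, and it does not bear on score. At the low end, 47 members scored under 75 and 77 scored 75 to 100, together a small part of the 2005.

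The strongest members stood alone. A score of 3100, at which the highest Pol II peaks tie, was reached by 24 Pol II peaks, and 21 of these overlapped FoxP3. The 3 that did not were members, and they were among the 5 widest members. The first, on chromosome 17 at 39979489 to 39985945, was 6457 bp wide and the widest Pol II peak of the list. The second, on chromosome 1 at 24618206 to 24623187, had 4982 bp, and the third, on chromosome 2 at 22442527 to 22446218, had 3692 bp. The nearest FoxP3 peak was 164658 bp from the first, 57313 bp from the second and 293105 bp from the third. The next 3 were much narrower for their score. One on chromosome 12, at 98299412 to 98300549, scored 1801 over 1138 bp. One on chromosome 13, at 85266156 to 85267297, scored 1693 over 1142 bp, and one on chromosome 6, at 9839783 to 9840649, scored 1077 over 867 bp. These 6 were all the members scoring 1000 or more, and none had another Pol II peak nearer than 57241 bp. Which sequences or genes lie there, and whether repeated sequence is among them, was not analysed here.

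The remaining members among the 10 highest-scoring were broad and isolated as well. The peak at 108678742 to 108681280 on chromosome 13 (2539 bp) scored 888.5 and lay 152839 bp from the nearest FoxP3 peak. On chromosome 2, a peak at 146047156 to 146049511 (2356 bp) scored 720.7 and one at 72816679 to 72818962 (2284 bp) scored 684.4. The last, at 151872655 to 151874315 on chromosome 3 (1661 bp), scored 692.1. Their nearest FoxP3 peaks were 38501, 31658 and 43582 bp away, in that order, and none of the 4 had another Pol II peak within 12500 bp.

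The 16 members over 2000 bp fell into a low-scoring and a high-scoring set, with 5 below 200, 11 at 400 or more and none between. The low set held 3 peaks side by side on chromosome 6, at 47625186 to 47629623 (4438 bp, score 91.65), 47629851 to 47633832 (3982 bp, score 50.29) and 47634097 to 47636701 (2605 bp, score 177.3). Gaps of only 227 and 264 bp separated them. The second ranked 7 by width and 17622 by score among the 17632 Pol II peaks. Of the other 2, one was on chromosome 8 at 20018858 to 20021018 (2161 bp, score 93.83) and one on chromosome 1 at 90172336 to 90174959 (2624 bp, score 181.6).

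The 3 peaks on chromosome 6 had a neighbour of the same kind. After a gap of 52136 bp came a dense cluster of 8 Pol II peaks at 47688838 to 47728782, which the cluster rule keeps out of the members. All 8 were over 800 bp, with widths of 976 to 5090 bp and scores of 51.23 to 338.7, and none overlapped FoxP3. The nearest FoxP3 peak to any Pol II peak of this stretch was 112530 bp away. The 3 narrower Pol II peaks on the other side were 558 to 595 bp wide, with scores of 81.2 to 112.1.

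**Figure D3:**
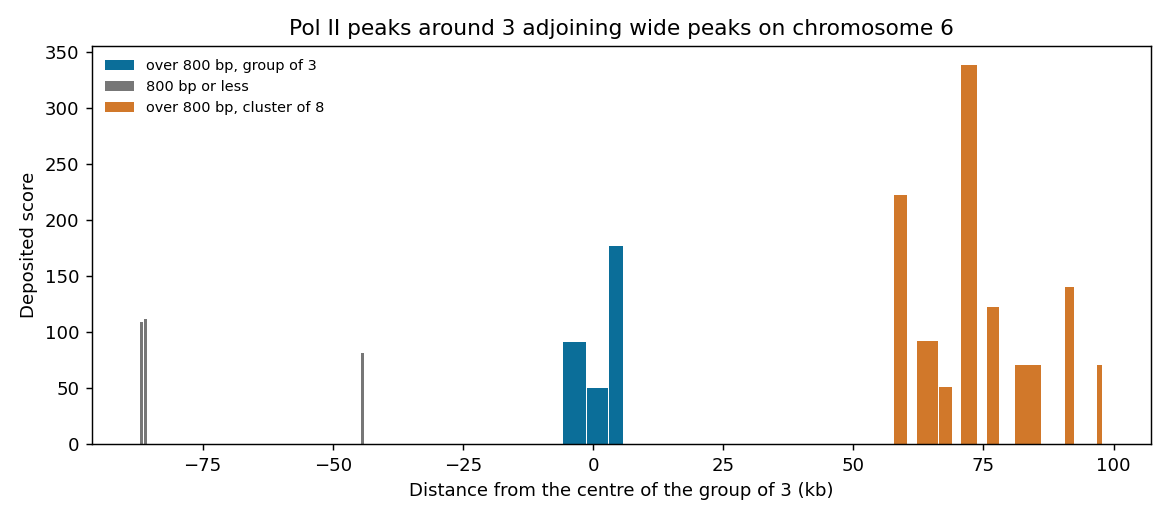
Pol II peaks within 150 kb of the 3 adjoining wide peaks on chromosome 6, drawn to scale by distance (kb) from their centre, with the deposited score as height. The group of 3 (blue) scores 50.29 to 177.3, the cluster of 8 (orange) lies to its right, and 3 narrower peaks (grey) lie to its left.

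Also among the 10 widest members were a peak on chromosome 18, at 60964672 to 60967298 (2627 bp, score 642), and one on chromosome 7, at 19575907 to 19578441 (2535 bp, score 682.6). Both had 1 further member beside them. On chromosome 18 the partner was a 900 bp peak (score 198.4) at a gap of 1313 bp, and on chromosome 7 it was an 875 bp peak (score 166.8) at a gap of 7912 bp. In each pair the broad peak carried the high score.

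Most members had no Pol II neighbour close by. Of the 2005, 1314 (65.5%, 63.4 to 67.6) were the only Pol II peak within 12500 bp, 487 were in groups of 2 and 204 in groups of 3. The share alone was equal, at 65.5% (64.5 to 66.4), among shorter peaks without FoxP3, and it was 71.6% (69.3 to 73.9) among wide peaks with FoxP3 and 76.9% (75.5 to 78.2) among shorter peaks with FoxP3. By this measure the members were placed as their shorter FoxP3-free counterparts were, and had close Pol II neighbours somewhat more often than peaks with FoxP3. The median gap from a member to the next Pol II peak was 22949 bp (21244 to 25053), against 22978 bp (22127 to 23791) and 31170 bp (27834 to 34040) for the shorter FoxP3-free and the wide FoxP3-overlapping peaks. Another Pol II peak lay within 1 kb of 180 members (8.98%) and within 250 bp of 73 (3.64%).

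A member has a minimum width by the rule and its neighbour has none, so their widths are given as a description. The nearest Pol II peak within 12500 bp was narrower in 616 of 691 cases (89.1%, 86.6 to 91.3) and had the lower score in 547 (79.2%, 76.0 to 82.0). For the 404 wide peaks with FoxP3 and such a neighbour, these shares were 91.1% (87.9 to 93.5) and 88.1% (84.6 to 90.9). Of the 691 members, that neighbour overlapped FoxP3 for 140, or 20.3% (17.4 to 23.4). The same share was 22.4% (21.0 to 23.9) for shorter peaks without FoxP3, 26.7% (22.7 to 31.3) for wide peaks with FoxP3 and 35.3% (32.2 to 38.6) for shorter peaks with FoxP3. The 691 members with company formed 629 groups of 2 or 3. FoxP3 overlapped no peak in 456 of these groups and at least 1 peak in 173. Every group held at least 1 member, which lacks FoxP3 by the rule, so this split is partly set by the rule. Of all unclustered Pol II peaks, 68.6% overlapped no FoxP3 peak, and groups of the other classes were not counted in this way. In 42 groups every peak was a member. The largest by summed width, after the groups on chromosomes 6, 18 and 7 given above, were a pair at 119890033 to 119893237 on chromosome 9 (scores 173.3 and 428.3) and 3 peaks at 8797158 to 8816444 on chromosome 19 (scores 140.1, 185.6 and 221.4).

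The median distance from a member's edge to the nearest FoxP3 peak of either list was 52696 bp (49684 to 56273), with quartiles of 22199 and 104287 bp. It was 53121 bp (51253 to 54630) for shorter peaks without FoxP3. A total of 34 members (1.70%, 1.22 to 2.36) had a FoxP3 peak within 1 kb, and 120 (5.99%, 5.03 to 7.11) had one within 5 kb. For shorter peaks without FoxP3 these shares were 2.06% (1.79 to 2.37) and 7.59% (7.07 to 8.16). For the 215 wide peaks without FoxP3 in dense clusters, which the rule leaves out, they were 5.12% (2.88 to 8.93) and 28.4% (22.8 to 34.7). Of the 34, 10 were near peaks of both FoxP3 lists, 12 near a peak of the list with GATA1 only and 12 near a FoxP3 alone peak only. A member with no FoxP3 peak can still hold FoxP3 below the caller's threshold, and the samples include no anti-FLAG control from cells lacking FLAG-FoxP3.

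Of the 5 members closest to FoxP3, 4 scored below the members' median of 197.8, while the 34 within 1 kb had a median of 222.2. The peak at 97490184 to 97491408 on chromosome 11 (1225 bp, score 278.7) lay 40 bp from a FoxP3 alone peak, and its nearest FoxP3 peak with GATA1 was 15675 bp off. For a member on chromosome 7 at 144504694 to 144505574 (score 164.8) and one on chromosome 14 at 41779694 to 41780574 (score 151.1), the near peak was one with GATA1, at 59 and 97 bp, and FoxP3 alone peaks were 20604 and 31413 bp off. A member on chromosome 13, at 37919232 to 37920050 (score 162.3), was 211 bp from a FoxP3 peak with GATA1 and 254 bp from a FoxP3 alone peak. For a member on chromosome 3, at 8664112 to 8664965 (score 147.9), these distances were 423 and 239 bp.

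FoxP3 peaks from cells with GATA1 lay nearer to the members than those from cells without it, but only with the full lists, which differ in length. The median distance was 65598 bp (62440 to 69195) to the 9011 peaks with GATA1 and 102811 bp (96606 to 108636) to the 5069 FoxP3 alone peaks. When only the 5069 highest-scoring peaks with GATA1 were used, the median was 124269 bp (116957 to 132367), the larger of the 2. At that equal length each list was the nearer one for 984 members, or 49.1% (46.9 to 51.3). Cutting the list by score changed both its length and the scores of the peaks in it, and their parts in the change of order were not tested. For each list, a member's nearest FoxP3 peak was kept where it lay within 5 kb. This gave 90 FoxP3 peaks with GATA1 and 71 FoxP3 alone peaks, and any further FoxP3 peaks within 5 kb were not counted. Their median scores, 194.8 (176.9 to 207.3) and 440.8 (404.7 to 499.5), were close to the medians of their whole lists, 195.2 and 425.5.

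**Figure D4:**
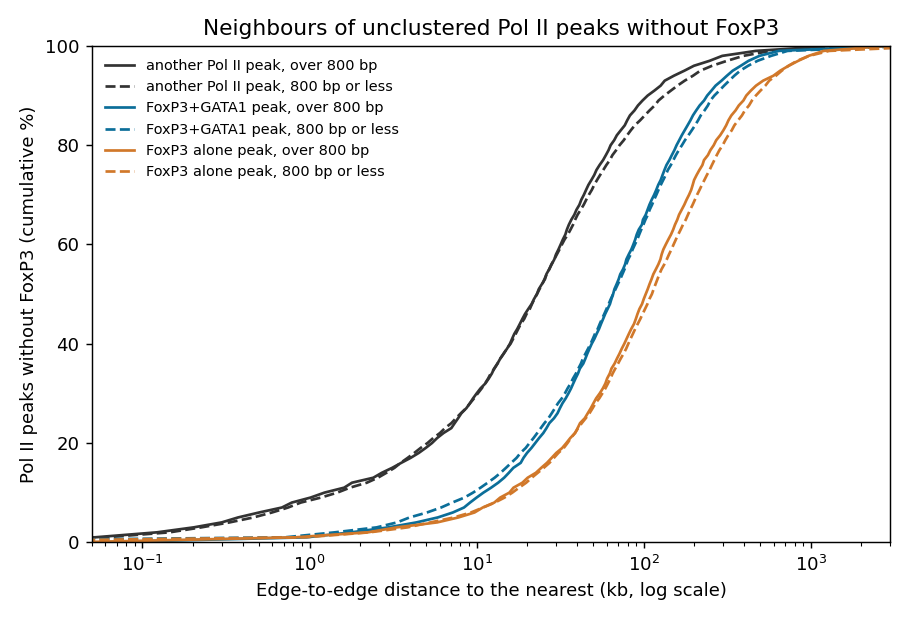
Cumulative share (%) of unclustered Pol II peaks without FoxP3 by edge-to-edge distance (kb, log axis) to the nearest other Pol II peak (black), FoxP3+GATA1 peak (blue) and FoxP3 alone peak (orange); solid lines are the 2005 wide peaks and dashed lines the 9125 shorter ones. Solid and dashed lines run close together, with medians of 22949 and 22978 bp to Pol II.

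The share standing alone was higher in the 2 upper quartiles of score than in the 2 lower ones, with overlapping intervals between neighbouring quartiles. From the lowest to the highest quartile of Pol II score, the share standing alone was 62.5% (58.2 to 66.7), 61.7% (57.3 to 65.8), 68.5% (64.3 to 72.4) and 69.5% (65.3 to 73.3). The median gap to the next Pol II peak was 21572 bp (17147 to 25097), 18289 bp (16228 to 22338), 25260 bp (22032 to 29043) and 26755 bp (22313 to 30964) in the same order. The median distance to FoxP3 was 50917, 50187 and 49288 bp in the first 3 quartiles and 59947 bp (54101 to 66890) in the highest, and these intervals overlapped. A FoxP3 peak within 5 kb was found for 33, 26, 30 and 31 members, respectively.

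The members were spread over all autosomes and chromosome X, with 0 on chromosome Y, where the whole Pol II list held 4 peaks. Chromosome 11 held 191, or 9.53% of the members against 8.50% of all Pol II peaks, and it was the densest at 1.61 per Mb of the span covered by the lists. Chromosomes 19 and 17 followed with 1.17 and 1.07 per Mb, and all chromosomes together had 0.78. Chromosome X held 17 members, or 0.104 per Mb, which is 0.848% of the members against 1.74% of Pol II peaks. Chromosome 14 was the sparsest autosome at 0.534 per Mb. Of the wide unclustered peaks on a chromosome, the share without FoxP3 ran from 45.9% (31.0 to 61.6) of 37 on chromosome X and 48.1% (39.8 to 56.5) of 133 on chromosome 14 to 66.1% (59.6 to 72.0) of 224 on chromosome 7 and 69.0% (63.3 to 74.1) of 277 on chromosome 11. The intervals of chromosomes 11 and 14 did not meet, but these chromosomes were picked from near the ends of the 20 shares. The intervals make no allowance for that choice, and a difference between chromosomes was not tested. Chromosome 11 had the highest of the 20 shares and chromosome 14 the lowest after chromosome X.

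**Figure D5:**
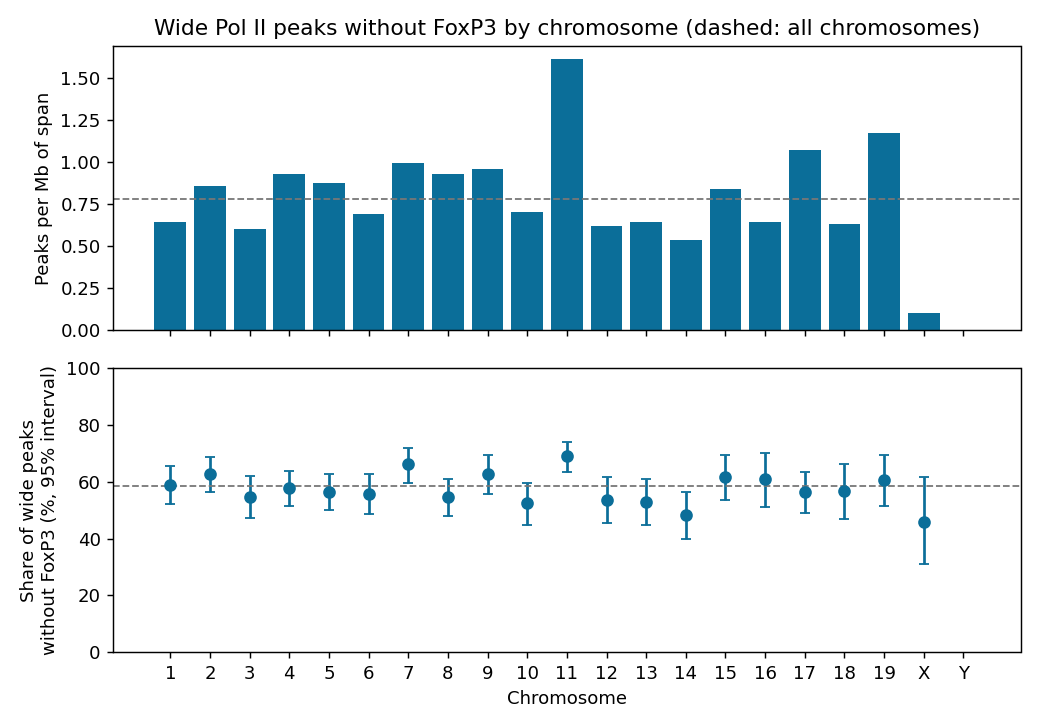
Top, wide Pol II peaks without FoxP3 per Mb of span for each chromosome; bottom, the share (%) of wide unclustered Pol II peaks that lack FoxP3, with Wilson 95% intervals; dashed lines give all chromosomes together (0.78 per Mb and 58.5%). Chromosome 11 is highest in both panels and chromosome X lowest among chromosomes with members.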

How the data were processed

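For each of the 3 precipitated libraries the authors deposited a list of peaks, called separately and, by the naming of the lists, each over the extract lane. Each peak has a deposited score, whose lowest value is 50.02 for Pol II and 70.56 and 70.75 for the FoxP3 lists with and without GATA1. The names of both FoxP3 lists also carry a cutoff label that the Pol II name lacks. The shares without FoxP3 depend on where each list was cut. The lists hold no read counts, so depth is unknown. MACS 1.4.0rc2, Bowtie and FastQC are named per the submitters' processing notes, without roles or settings, and so is the build mm8. The lists do not bear that build out: peaks reach 197106012 on chromosome 1 and 152430305 on chromosome 7, past the ends of these chromosomes in mm8 as generally known. On 8 of 21 chromosomes they also pass the end of the furthest gene in the GRCm38.p6 table. No gene name or sequence was therefore taken by position, and no sequence is printed. Deposited starts were raised by 1 for printing, and width is end minus deposited start.

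Overlap meant at least 1 shared bp, found with pandas 2.3.3 and numpy 2.4.6 under Python 3.11.15, with intervals from scipy 1.17.1. For comparison, bedtools 2.31.1 gave the same 2220 wide FoxP3-free peaks. Distances run edge to edge. Membership code was tested on simulated data. With 1 library per group no test was run. Regions were named by rule: the 10 highest-scoring and 10 widest members, the 5 lowest-scoring over 2000 bp, the 5 nearest to FoxP3, the 5 farthest from Pol II and from FoxP3, the 5 widest all-member groups and 3 peaks on each side of 800 bp. The other peaks of the chromosome 6 stretch were chosen after their values were seen. The members, lists and alternatives were chosen with earlier results of these data known.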

Additional observations from a re-analysis of the deposited data

How the results depend on the processing

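No paired analysis was possible because a group here is 1 library, and none could be left out. Of 66 values recomputed under other settings, 43 stayed within the interval of the reported value (counts: within 1.5 times) and 23 moved beyond it. Only the score difference could change sign, and it stayed negative in every setting. With a minimum width of 700 bp there were 3239 members, 60.4% of wide peaks lacked FoxP3, and members had a median width of 843 bp and a median score of 166.1. With 1000 bp these were 743, 54.5%, 1155 bp and 265.5, and 32.2% had a Pol II neighbour within 12500 bp. Counting only the FoxP3+GATA1 list gave 66.9% without FoxP3, a median score of 202.8 and a median distance of 65878 bp. Counting only FoxP3 alone gave 70.1%, 105676 bp and a score difference from peaks with FoxP3 of -65.73. With the FoxP3+GATA1 list at the length of the other, chosen after seeing the data, the share was 63.8% and the distance 73702 bp. The share with a Pol II neighbour, 34.5% as reported, was 38.6% with clusters joined across 5 kb, 40.8% with clusters kept (distance to FoxP3 48100 bp) and 26.4% among Pol II scores of 100 or more. In that last setting the median width was 947.5 bp and the median score 202.1. Leaving out chromosomes X and Y, or peaks with FoxP3 within 1 kb, moved none of the 7 results beyond its interval. The settings change which peaks enter; no other cause was tested.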

Other observations

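In fixed windows of 1 Mb, 1038 windows held at least 1 member, 566 held exactly 1 and 128 held 4 or more. The 17632 Pol II peaks as a whole fell in 2296 windows, 313 with exactly 1 and 1478 with 4 or more. The 9125 shorter unclustered peaks without FoxP3 fell in 1957 windows, 456 with exactly 1 and 937 with 4 or more. These sets differ in size, and the rule leaves dense clusters out of the members, so the counts are not directly comparable. Positions given below run from the first to the last member of a window, while Pol II peaks are counted over its whole 1 Mb. The fullest window, on chromosome 19 (members from 5001819 to 5913124), had 11 members among 41 Pol II peaks. These members had widths of 840 to 1316 bp and scores of 111.8 to 282.5. Windows with 8 members each lay on chromosome 2 (25079726 to 25477532, 34 Pol II peaks), chromosome 5 (122110104 to 122952805, 31), chromosome 7 (148042633 to 148748608, 25) and chromosome 9 (108165340 to 108976803, 26). In the chromosome 9 window, 8 of 26 Pol II peaks were members, and their scores stayed between 162.3 and 242.1. A window on chromosome 10 (members from 80023555 to 80847617), which had the most Pol II peaks of any window, held 7 members among 64. These windows were picked for their high counts of members, which were 11.4% of all Pol II peaks. Whether members were enriched in any window was not tested.

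At the other extreme, some members stood far from any other peak. The member at 115800278 to 115801120 on chromosome 1 (843 bp, score 193.1) was 1347013 bp from the next Pol II peak and 1215077 bp from the nearest FoxP3 peak. The last Pol II peak of chromosome 17, at 95233753 to 95234804 (1052 bp, score 159.2), was 1188284 and 1188211 bp away. On chromosome 7, members at 57970599 to 57971441 (score 69.74) and 59116837 to 59117956 (score 338.5) were each other's neighbour in the list on 1 side, at a gap of 1145395 bp. The member at 119175266 to 119176177 on chromosome 13 (score 170.6) was 783779 bp from Pol II, though a FoxP3 peak with GATA1 lay 87868 bp from it. Also far from FoxP3 were a member on chromosome 14 at 112080331 to 112081132, by 836826 bp, and one on chromosome X at 165757793 to 165758607, by 768037 bp.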
